A study of Xenopus laevis with 8 samples.

Results

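The genes described here encode the extracellular matrix of the frog embryo, the integrins that bind it and the enzymes that cut it. They were chosen by name: a probe set belonged when the symbol of its array annotation, without the ending for the L or S copy, was that of a collagen, laminin, nidogen, fibronectin, fibrillin, fibulin, emilin, lysyl oxidase, thrombospondin, tenascin, periostin, SPARC, hyaluronan synthase, link protein, versican, aggrecan, perlecan, integrin, dystroglycan, matrix metalloproteinase or TIMP gene. Of 15491 probe sets that are not controls, 96 met this rule, for 59 of the 6504 genes with a symbol, L and S copies counted together. Another 4 were annotated to both copies of a gene at once and are not described. The symbols itgb2-a and col9a1-b were counted as genes apart from itgb2 and col9a1. The rule found no laminin chain, aggrecan, perlecan or periostin among the probe sets used here. It also took in itgb1bp2.L, the gene of melusin, a muscle protein that binds an integrin tail and is not a matrix protein or a receptor, and which is kept apart below. Xenopus laevis is tetraploid in origin and keeps many genes as an L and an S copy. Genome positions are left out, since the array's build is not named.

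The matrix of an early embryo is laid down before there is bone or cartilage. Fibronectin fibrils line the surfaces over which mesoderm moves, hyaluronan fills the spaces between tissues, basement membranes of type IV collagen, laminin and nidogen separate cell layers, and a sheath with type II collagen stiffens the notochord. Cells hold on to these proteins through integrins, each a pair of an alpha and a beta chain, of which beta1 has the most partners. Matrix metalloproteinases cut matrix proteins and are blocked by the TIMP inhibitors.

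Untreated Xenopus laevis embryos at stage 18, a late neurula, were cut into a head and a tail section, and RNA of each was measured on an Affymetrix array. There were 4 head and 4 tail arrays, of which replicates 1 to 3 came from single embryos and replicate 4 from pooled embryos. The labels do not say which clutch an embryo came from, how many were pooled, or whether a head and a tail with the same number were parts of the same embryo, so p-values cover only the spread between these samples. RNA was amplified in 2 rounds from 100 ng. Values are log2 of the authors' MAS5 signal.

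The sections carried the markers of their labels. Of 6 anterior marker genes tested, 5 were higher in heads, and all 6 posterior marker genes tested were higher in tails. Apart from wnt8a, those 6 had head means under the filter on low values (mean log2 signal of 7.86) and were tested through their higher tails. Of the 9 posterior genes listed, hoxb9, cdx4 and msgn1 were not tested. Their head means were 7.7, 4.85 and 5.01 and their tail means 7.71, 7.73 and 9.87. The summed signal of the anterior list ran from 48726 to 68063 in heads and from 5861 to 9121 in tails, and that of the posterior list from 1258 to 2952 in heads and from 9115 to 13503 in tails. Markers of other tissues moved with the cut as well: 3 of 4 cranial neural crest genes tested were higher in heads (summed signal 4469 to 5555, against 1521 to 2611 in tails) and 2 of 6 endoderm genes were higher in tails (31899 to 41216, against 12607 to 20944 in heads). Of 6 somite and muscle genes 1 was higher in tails (sums of 17934 to 26567 in heads and 16470 to 36436 in tails), as was 1 of 3 notochord genes (2009 to 3641 and 1851 to 3260), and none of 3 epidermal genes passed (60098 to 73419 and 61640 to 102793). The notochord gene called was tbxt, which also counts in the posterior list. The other notochord genes tested, shh and not, had changes of 0.84 and 0.77 (limma adjusted p = 0.375 and 0.306). The notochord gene foxa4 lay under the filter, with means of 6.42 in heads and 8.27 in tails. Among the genes called, sox10 and tfap2b (neural crest) and myf5 (muscle) were tested through their higher tissue, the lower mean being under the filter. Every marker exceeded the 20th percentile of all values on at least 1 array. The part of these tissues in the differences below was not tested. In such sections, fewer cells of a type and less RNA per cell cannot be told apart.

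The matrix genes past the threshold encode 3 proteases, a hyaluronan synthase and a pair of matricellular proteins, and no collagen or integrin passed. Of 96 probe sets, 42 had a mean signal above the filter on low values and were tested, for 32 genes. In limma, 6 of these 42 (14.3%) passed an adjusted p of 0.05, against 4.62% of all probe sets tested. The metalloproteinase gene mmp28.L was higher in heads (2.00% of all probe sets were called in that direction), and mmp21.L, tnc.L, has1.S, sparc.L and mmp3.L were higher in tails (2.61%). Of these calls, mmp21.L and tnc.L had head means under the filter and were tested through their higher tails. With no filter, 5 of the 96 passed, against 2.93% of all probe sets. The median change of the 42 was -0.18 on the log2 scale, head minus tail, and that of all probe sets tested was 0.06. Heads and tails did not overlap in 7 of the 42 probe sets (16.7%), against 11.7% of all.

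By protein class, the calls lay in 3 groups. Of 6 metalloproteinase and inhibitor probe sets tested, 1 was higher in heads and 2 in tails. Of 9 fibronectin and matricellular probe sets, 2 were higher in tails, and of 4 hyaluronan and lectican probe sets 1 was. None passed among 2 fibrillar collagen, 4 other collagen, 3 basement membrane, 5 elastic fibre and crosslinking, and 8 integrin and dystroglycan probe sets in limma, where respectively 0, 1, 0, 0 and 1 had an unadjusted p under 0.05, as had 17.5% of all probe sets tested. With so few probe sets tested per class, and 4.62% of all called, a class without a call says little. Class medians ran from -0.49 for hyaluronan and lectican genes to 0.46 for the other collagens, leaving out itgb1bp2.L, which stands alone.

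**Figure D1:**
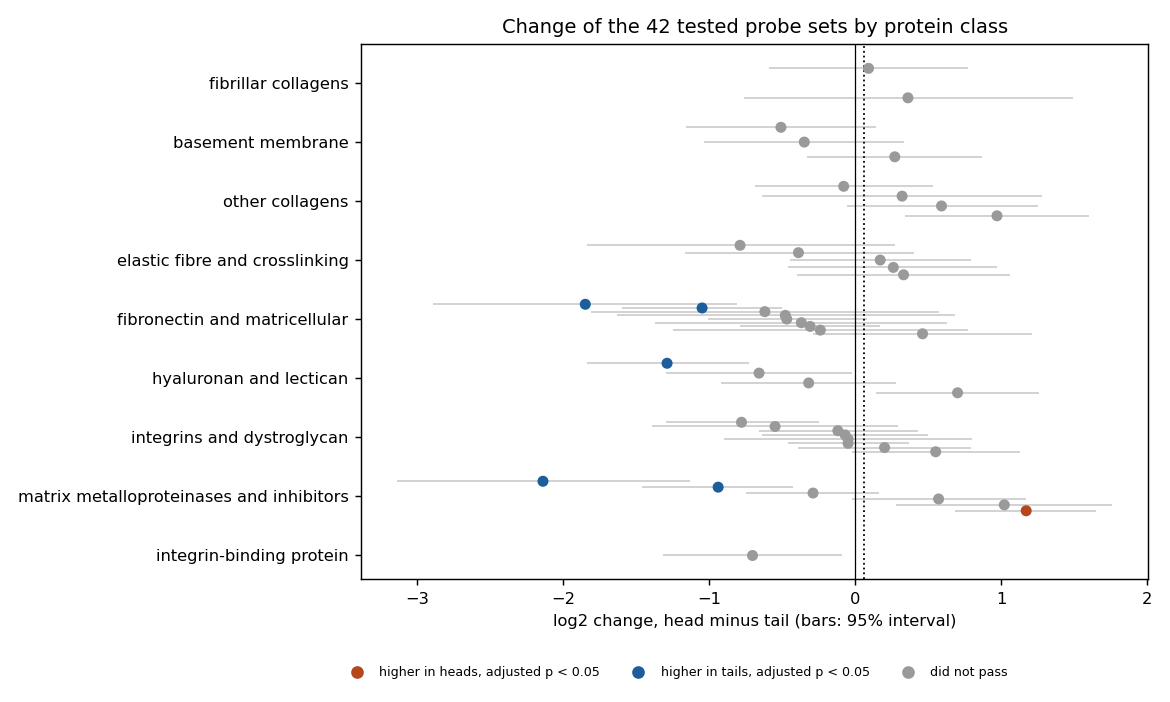
Log2 change between heads and tails (head minus tail, horizontal axis) of the 42 tested probe sets, in rows by protein class, with the 95% interval of each from limma as a bar. Coloured points passed an adjusted p of 0.05, the dotted line is the median of all probe sets tested at 0.06, and the 6 coloured points lie in 3 of the classes.

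Of the 6 calls, that of mmp28.L passed whichever array was left out, and each of the others was lost without at least 1 array. With the 6 single-embryo arrays alone, limma called none of the 42, and 2.27% of all probe sets. At an unadjusted p under 0.05, 4 of the 42 were then higher in heads and 7 in tails. With all 8 arrays these counts were 4 and 8, beside 17.5% of all probe sets in either direction. That share is not given for the single embryos, so their counts cannot be judged against it. Among the single embryos the changes of the 6 calls were 1.08 for mmp28.L, -2.23 for mmp21.L, -2.17 for tnc.L, -1.23 for sparc.L, -1.13 for has1.S and -0.82 for mmp3.L. Without tail replicate 3, mmp28.L alone of the 42 passed, and 2.24% of all did. No member was then called higher in tails. With head replicates 2, 3 and 4 left out in turn, 4, 2 and 3 members passed in either direction, beside 2.44%, 2.65% and 2.98% of all probe sets. With tail replicates 1, 2 and 4 left out 4, 3 and 5 passed, beside 5.39%, 2.96% and 3.93% of all. With head replicate 1 left out 6 passed (5.15% of all), with col6a1.L and a timp3.L probe set in place of sparc.L and tnc.L.

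Among the proteases, mmp28.L, which encodes epilysin, a secreted metalloproteinase, was the member higher in heads. Its log2 signal was 9.98, 9.98 and 10.05 in the single heads and 9.77 in the head pool, and 8.88, 9.07, 8.82 and 8.35 in the tails in the same order. All heads lay above all tails, and the heads were close to each other (SD 0.12, n = 4; tails 0.31, n = 4). The difference was 2.24-fold (log2 change 1.17, SE 0.22; limma adjusted p = 0.0111). It passed whichever single array was left out, and its adjusted p was 0.0519 in the single-embryo arrays alone.

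The gene mmp21.L went the other way. It encodes a metalloproteinase that several vertebrates need to set left and right apart. Heads read 5.59, 7.01, 7.43 and 7.27 and tails 7.85, 9.47, 9.38 and 9.15. In both tissues replicate 1 was the lowest array, and the groups did not overlap, the lowest tail being above the highest head. The head mean was 6.82 ± 0.84 and the tail mean 8.96 ± 0.75 (SD, n = 4 each), a 4.41-fold difference (log2 change -2.14, SE 0.46; limma adjusted p = 0.0217). With values raised to the 20th percentile, 93.3 signal units, it was 3.73-fold. The head mean lay under the filter on low values (7.86), so mmp21.L was tested through its higher tails. With no filter its limma adjusted p was 0.0314. In limma the call was lost when head replicate 2 (adjusted p = 0.0549), tail replicate 2 (0.0725) or tail replicate 3 (0.082) was left out, as it was among the single embryos (0.0802).

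A smaller tail difference was measured for mmp3.L, annotated as stromelysin 1, which cuts a wide range of matrix proteins in mammals. Heads read 10.84, 10.78, 10.43 and 10.57 and tails 11.79, 11.01, 11.68 and 11.88. Tail replicate 2 stood close to the heads, without overlap. The difference was 1.92-fold (log2 change -0.94, SE 0.24; limma adjusted p = 0.0425). The limma adjusted p missed the threshold when head replicate 2 (0.0942), 3 (0.136) or 4 (0.106) or tail replicate 1 (0.0648), 3 (0.141) or 4 (0.104) was left out. It was 0.0501 with no intensity trend and 0.211 among the single embryos.

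The membrane-bound protease gene mmp14.L, whose product activates other metalloproteinases, had similar means in heads and tails, 9.41 ± 0.20 and 9.71 ± 0.18 (SD, n = 4 each). Its change of -0.29 had a 95% interval from -0.75 to 0.16 (limma adjusted p = 0.532). A further tail-leaning gene, mmp11.L (stromelysin 3, which is known from frog metamorphosis), lay under the filter and was singled out after its values were seen. Heads read 4.17, 7.01, 6.79 and 6.89 and tails 8.60, 8.27, 8.25 and 8.84, again without overlap. The head mean lay under the 20th percentile, so that the tails were at least 3.2-fold higher, and in limma with no filter it missed the threshold (adjusted p = 0.0562).

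The inhibitor gene timp3.L, whose product stays bound to the matrix, leaned to heads in both probe sets tested. In Xl.2467.2.A1_x_at heads read 10.51, 12.01, 12.11 and 11.35 and tails 10.37, 10.94, 10.36 and 10.22. Head replicate 1 fell among the tails, whereas the other heads lay above them, and the change of 1.02 did not pass (SE 0.34; limma adjusted p = 0.13). Without head replicate 1 it was 1.35 (adjusted p = 0.0161). In Xl.2467.2.S1_at tail replicate 1 at 10.64 was above every head (10.24, 10.47, 10.46 and 10.37) and the other tails were at 9.49 to 9.57. Its change of 0.57 (limma adjusted p = 0.306) became 0.85 without that array (adjusted p = 0.0293). The array's cluster number 2467 is shared by these probe sets and by a pair annotated itgb3.L, an unrelated gene, so the name timp3.L is uncertain here. Another timp3.L probe set, Xl.320.1.S1_at, has a different cluster number and lay under the filter. It had means of 6.25 in heads and 6.18 in tails, and a change of 0.07 with no filter.

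**Figure D2:**
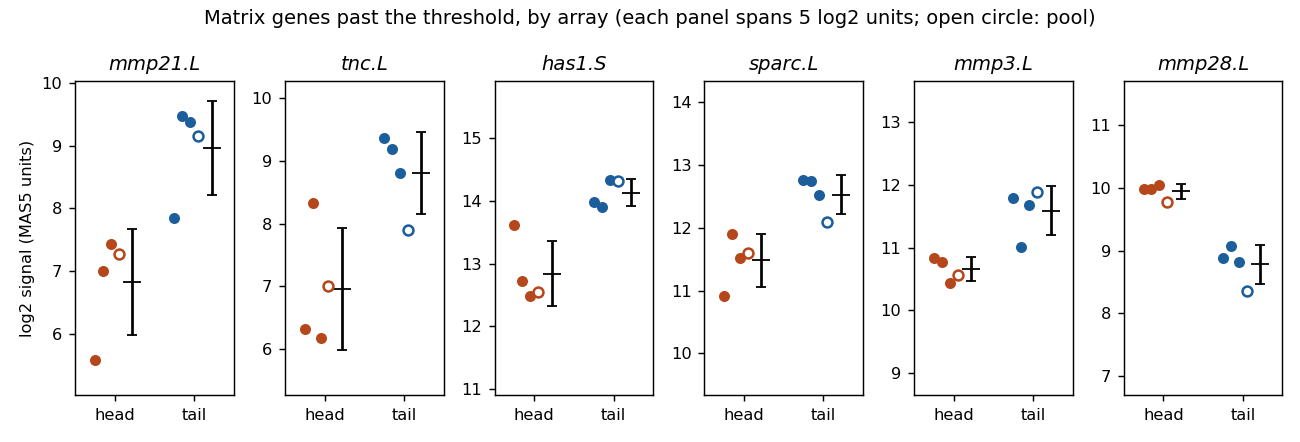
Log2 signal of the 6 probe sets past the threshold on each head (orange) and tail (blue) array. Filled points are single embryos, open circles are pools, and the black bar is the mean with its SD (n = 4). Each panel spans the same number of log2 units. Heads and tails overlap only in tnc.L, where head replicate 2 at 8.32 lies above the tail pool at 7.89.

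In the hyaluronan group the synthase gene was higher in tails, and no gene of a protein that binds hyaluronan passed. The synthase gene has1.S, known in Xenopus as DG42, encodes the membrane enzyme that spins out hyaluronan. Heads read 13.61, 12.72, 12.49 and 12.55 and tails 13.98, 13.91, 14.33 and 14.31. Head replicate 1 was the highest head yet remained under the lowest tail. Means were 12.84 ± 0.52 and 14.13 ± 0.22 (SD, n = 4 each), a 2.44-fold difference (log2 change -1.29, SE 0.25; limma adjusted p = 0.0131). Leaving out head replicate 3 gave a limma adjusted p of 0.0516, leaving out tail replicate 3 one of 0.0601, and the single embryos one of 0.084.

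The versican gene vcan.L, a large proteoglycan that binds hyaluronan, read 10.87, 9.97, 11.35 and 10.52 in heads and 10.97, 11.65, 11.19 and 11.55 in tails. Head replicate 3 lay among the tails, and the change of -0.66 did not pass (95% interval -1.30 to -0.02; limma adjusted p = 0.27). The link protein gene hapln3, whose product clamps proteoglycans to hyaluronan, had opposite signs in its copies: hapln3.L had a change of -0.32 (limma adjusted p = 0.618) and hapln3.S one of 0.70 (limma adjusted p = 0.171). The second synthase gene on the array, has2.S, lay under the filter with heads at 6.89 to 7.25 and tails at 6.93 to 8.29.

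Of the matricellular genes, which encode secreted proteins that tune how cells grip the matrix, sparc.L and tnc.L were higher in tails. SPARC is a collagen-binding glycoprotein. The log2 signal of sparc.L was 10.91, 11.91, 11.52 and 11.60 in heads and 12.77, 12.74, 12.53 and 12.09 in tails. The head and tail ranges came within 0.18 of each other at head replicate 2 and the tail pool. The difference was 2.07-fold (log2 change -1.05, SE 0.25; limma adjusted p = 0.0353). The limma adjusted p was 0.0632, 0.0954 and 0.0729 with head replicates 1, 3 and 4 left out, 0.0575, 0.106 and 0.109 with tail replicates 1, 2 and 3 left out, and 0.054 among the single embryos.

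Tenascin-C, encoded by tnc.L, is a large glycoprotein that weakens adhesion to fibronectin. Heads read 6.32, 8.32, 6.18 and 7.01 and tails 9.36, 9.18, 8.80 and 7.89. Head replicate 2 lay above the tail pool, so the groups overlapped. The difference was 3.6-fold (log2 change -1.85, SE 0.48; limma adjusted p = 0.0479), or 3.26-fold with values raised to the 20th percentile. Its mean signal was just above the filter and its head mean of 6.96 under it, so tnc.L was tested through its higher tails. With no filter its limma adjusted p was 0.0696. It missed the threshold when head replicate 1 (0.0958), 3 (0.149) or 4 (0.097) or tail replicate 1 (0.0886), 2 (0.134) or 3 (0.128) was left out, and among the single embryos (0.0679). A second tnc.L probe set under the filter read 4.78 to 6.97 in heads and 3.14 to 6.71 in tails and had a change of -0.02 with no filter.

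The fibronectin gene fn1.S had 4 probe sets, all tested, with changes from -0.62 to -0.24 and none past the threshold (limma adjusted p of 0.628 to 0.845). The probe set Xl.2243.1.S1_a_at read 13.46, 13.41, 13.91 and 14.31 in heads and 12.58, 14.49, 14.21 and 15.29 in tails. The tails spread far more than the heads, from the lowest of all arrays in tail replicate 1 to the highest in the tail pool. Its 95% interval, -1.37 to 0.63, leaves room for a difference of more than 2-fold in favour of tails. The 4 probe sets followed each other across the 8 arrays (Pearson's r of 0.967 to 0.99), and all share 1 target cluster, so they are not independent measurements.

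The thrombospondin genes encode calcium-binding glycoproteins of the matrix. Those tested were thbs3.L, with a change of 0.46, and thbs4.S, with -0.47 (limma adjusted p = 0.556 and 0.372). Neither gene separated the tissues: thbs3.L ran from 8.93 to 10.49 in heads and from 8.94 to 9.89 in tails, and thbs4.S from 8.64 to 9.53 and from 9.13 to 9.64.

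Collagen genes were mostly dim and none passed. Of 8 fibrillar collagen probe sets, 2 were tested. The gene col2a1.S, of the type II collagen of notochord and cartilage, read 7.52, 8.25, 9.04 and 9.55 in heads and 7.42, 7.52, 8.41 and 9.54 in tails. Heads and tails covered the same range, each from replicate 1 up to the pool, and the change was 0.36 (95% interval -0.76 to 1.49; limma adjusted p = 0.786). The gene of the type I chain, col1a1.S, had a change of 0.09 in one probe set (limma adjusted p = 0.919), and its other probe set, col1a2.L, col3a1.S and col5a1.L all lay under the filter.

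Type IX collagen sits on the surface of type II fibrils, and both of its genes tested leaned to heads. In col9a1.L heads read 9.08, 8.80, 9.32 and 9.34 and tails 7.47, 8.69, 8.38 and 8.12. The groups did not overlap, but the change of 0.97 missed the threshold (SE 0.29; limma adjusted p = 0.0903). Its partner col9a2.L had a change of 0.59 (limma adjusted p = 0.34), with 7.72 to 8.88 in tails and 8.56 to 9.33 in heads. The gene col6a1.L, of a microfibril collagen found around many cells, read 10.18, 9.96 and 9.88 in head replicates 2 to 4, above all tails (8.96 to 9.36), but 7.82 in head replicate 1. Over all arrays its change was 0.32 (limma adjusted p = 0.777), and without head replicate 1 it was 0.87 (adjusted p = 0.0478). The gene col8a1.S had a change of -0.08 (limma adjusted p = 0.92).

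In the basement membrane class, 3 of 7 probe sets were tested. The nidogen gene nid2.L, whose product ties laminin to type IV collagen, read 10.52, 10.71, 11.26 and 10.74 in heads and 10.49, 11.88, 11.56 and 11.32 in tails. Apart from tail replicate 1, the lowest array of all, every tail lay above every head, and the change of -0.51 did not pass (95% interval -1.16 to 0.14; limma adjusted p = 0.428). The L and S copies of col18a1, the collagen from which endostatin is cut, had changes of -0.35 and 0.27. All type IV collagen probe sets, of col4a1.L and col4a2.L, lay under the filter.

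The elastic fibre class, whose proteins build, bind or crosslink elastic fibres, had 5 of 6 probe sets tested and none called. The fibulin gene fbln1.L read 10.29, 11.16, 11.01 and 12.04 in heads and 10.44, 12.28, 12.01 and 12.91 in tails, with a change of -0.79 (95% interval -1.84 to 0.27; limma adjusted p = 0.458). Replicate 1 was lowest and the pool highest in both tissues, and the groups overlapped widely. Changes were -0.39 for the fibrillin gene fbn3.L, 0.26 for emilin1.L, 0.17 for emilin2.L and 0.33 for loxl1.L, which encodes an enzyme that crosslinks elastin (limma adjusted p of 0.651 to 0.822).

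Integrin genes did not differ past the threshold. Of 30 probe sets for 15 genes, 8 for 5 genes were tested: itga3, itga5, itgb1, itgb5 and the dystroglycan gene dag1, which encodes a laminin receptor outside the integrin family. The beta1 gene had its L copy, in the brighter probe set, at 13.50, 13.17, 13.06 and 13.14 in heads and 13.18, 12.98, 13.45 and 13.44 in tails, a change of -0.05 whose 95% interval ran from -0.46 to 0.37 (limma adjusted p = 0.93). A much dimmer probe set of the L copy, Xl.818.1.S1_at, had means of 8.09 and 7.89 and a change of 0.20 (limma adjusted p = 0.772). The S copy of the beta1 gene read 11.53, 10.94, 11.82 and 11.13 in heads and 11.86, 12.45, 12.20 and 12.03 in tails. Here every tail lay above every head, by as little as 0.04 between head replicate 3 and tail replicate 1, and the change of -0.78 did not pass (SE 0.24; limma adjusted p = 0.104).

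Fibronectin's main receptor in the frog gastrula pairs beta1 with alpha5. The 2 tested probe sets of itga5.L had changes of -0.12 and -0.07, with 95% intervals of -0.66 to 0.43 and -0.64 to 0.50. The laminin-binding alpha3 gene itga3.L had a change of -0.55 (limma adjusted p = 0.524) and ran from 8.11 to 9.53 in heads and from 8.34 to 10.04 in tails. The vitronectin-binding beta5 gene itgb5.L leaned to heads by 0.55 (limma adjusted p = 0.306), and dag1.L had a change of -0.05 (95% interval -0.90 to 0.80). Melusin's gene itgb1bp2.L had a change of -0.71 (limma adjusted p = 0.214), with 9.85 to 10.76 in heads and 10.74 to 11.79 in tails.

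Of the 59 genes, with itgb2-a and col9a1-b counted apart from itgb2 and col9a1, 27 had no probe set tested. The 54 probe sets under the filter had mean log2 signals of 3.32 to 7.85. They included 22 of the 30 integrin and dystroglycan probe sets, among them those of itga2, itga4, itga6, itgb2, itgb3 and itgb6, and 13 of the 19 for proteases and inhibitors. With no filter, limma called none of the 54, while it called 2.93% of all 15491 probe sets and 1.34% of the 6196 under the filter. An unadjusted p under 0.05 was reached by 6 of the 54, and by 9.68% of the 6196. A low signal does not show that these genes are off.

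For 4 genes both copies were tested, and the change of the L copy was compared with that of the S copy on each array, a comparison added after the data were seen. In sparc the L copy had a change of -1.05 and the S copy one of -0.31 (limma adjusted p = 0.0353 and 0.535). The L minus S difference was -0.04 to 0.71 in heads and 0.68 to 1.41 in tails (exact permutation test over the 8 arrays, two-sided p = 0.0571). In col18a1 this difference was lower in all heads (-1.55 to -0.72) than in all tails (-0.59 to -0.10), at the smallest p these 70 splits can give (exact p = 0.0286). For hapln3 and itgb1 the exact p was 0.0857 and 0.114. Adjusted over the 4 genes all values were 0.114. No gene alone could have passed, since 0.114 is also the adjusted value of a single gene at the smallest p, so the missed threshold says nothing about whether copies differ. Cross-hybridisation between the copies was not tested.

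**Figure D3:**
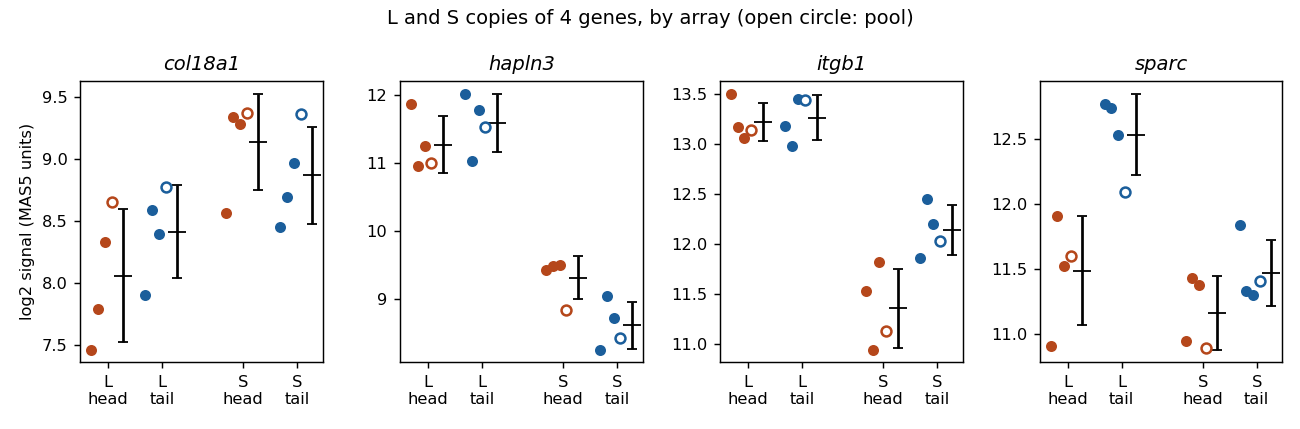
Log2 signal of the L and S copies of col18a1, hapln3, itgb1 and sparc on each head (orange) and tail (blue) array, with the mean and SD (n = 4) in black and pools as open circles. The vertical axis differs between panels. In sparc the L copy separates tails from heads while the S copy overlaps, and in itgb1 the S copy separates them while the L copy overlaps. The ranges are described without a test that a single gene could have passed.

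Several matrix genes were lowest in replicate 1 and highest in the pool, in both tissues. Whether a head and a tail with the same number shared an embryo is not known. In heads as in tails, the pool was the highest array for 14 of the 42 probe sets, a larger share than the 15.9% of all probe sets tested. Replicate 1 was the lowest in both tissues for 15 of the 42, also a larger share than the 16.8% of all. Both held for 11 of the 42 (26.2%), against 7.90% of all. These were 3 probe sets of fn1.S, both copies of col18a1, and col2a1.S, fbln1.L, fbn3.L, loxl1.L, itga3.L and itgb5.L. The 3 of fn1.S are not independent measurements. In col2a1.S the pools were 1.52 log2 units above the single embryos, in fbln1.L 1.28 and in the 4 fn1.S probe sets 1.13 to 1.41. Compared with single embryos in limma, with tissue in the model and as a comparison added after the data were seen, 10 of the 42 had an unadjusted p under 0.05 (14.8% of all probe sets had), and none passed adjustment, as none of all 9295 did. With 1 pool per tissue, pooling and that particular sample cannot be told apart. Arrays of a tissue had a median SD of 0.42 in heads and 0.40 in tails over the 42, against 0.33 and 0.37 over all probe sets tested.

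**Figure D4:**
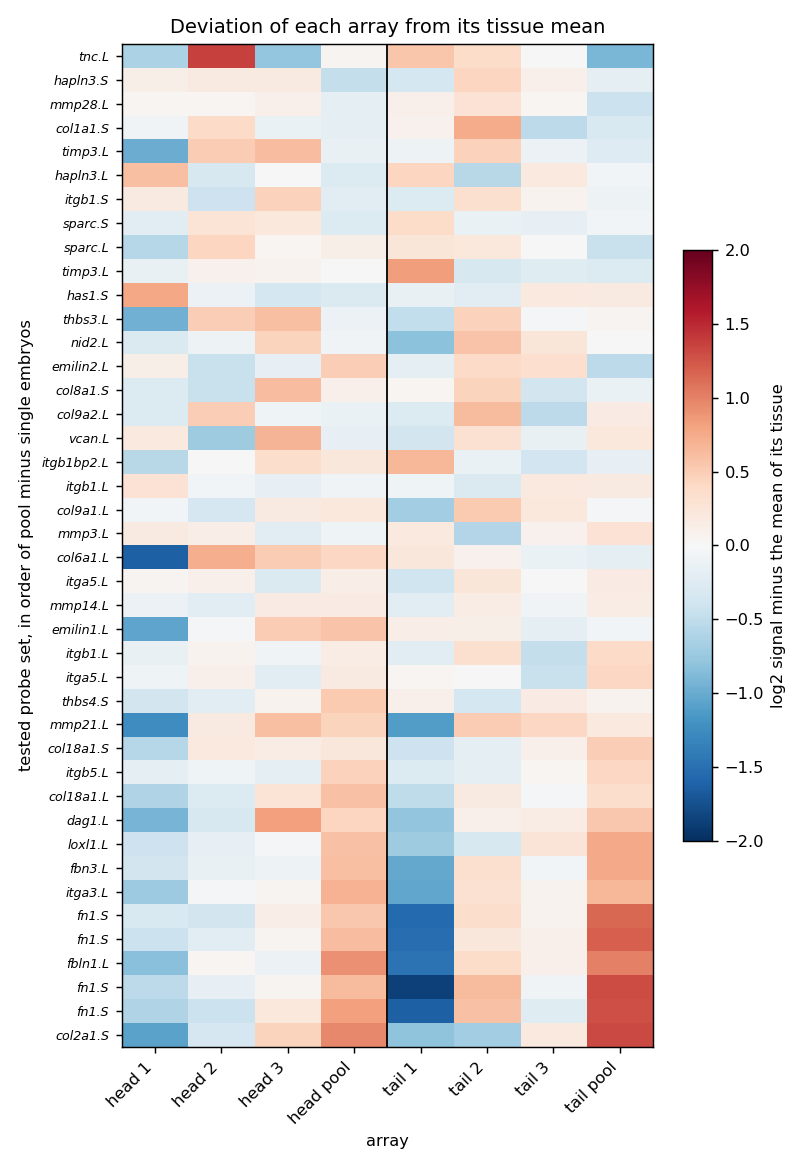
Log2 signal of each tested probe set (rows) on each array (columns) minus the mean of its tissue, in order of the difference between pools and single embryos. Red is above and blue below the mean of the 4 arrays. The rows at the bottom, col2a1.S, the fn1.S probe sets and fbln1.L, are lowest in replicate 1 or nearly so and highest in the pools, in both tissues.

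Genes that make or read the matrix, outside the name rule, were followed in 6 lists, each gene by its brightest tested probe set. Of 14 genes of collagen processing and its control tested, not all of them for enzymes, 2 were higher in tails and none in heads. That was 14.3%, beside 4.62% of all probe sets in either direction and 2.61% in tails. The gene plod1.S encodes a lysyl hydroxylase, which prepares collagen for crosslinking. It read 8.46, 7.53, 7.40 and 8.14 in heads and 9.71, 9.52, 9.90 and 9.97 in tails. All tails lay more than 1 log2 unit above the highest head, a 3.72-fold difference (limma adjusted p = 0.00197), and it passed under every alternative that tested it. The prolyl hydroxylase gene p4ha2.L, whose product stabilises the collagen helix, was 2.82-fold higher in tails (limma adjusted p = 0.0304). That call was lost when head replicate 2 (limma adjusted p = 0.0977), 3 (0.0985) or 4 (0.0823) or tail replicate 2 (0.0938), 3 (0.0716) or 4 (0.0698) was left out, and among the single embryos (0.158). The head mean of p4ha2.L (7.29) lay under the filter on low values and its tail mean (8.79) above it. The gene was thus tested through its higher tails, and with no filter its limma adjusted p was 0.0494. The collagen chaperone gene serpinh1.S had a change of 0.07.

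Of 15 integrin-linked adhesion proteins tested, fermt1.S alone was called (6.67%, beside 4.62% of all probe sets tested). It encodes kindlin-1, which switches integrins on in epithelia. Heads read 10.03, 9.26, 9.93 and 9.61 and tails 11.25, 10.80, 10.87 and 10.72, without overlap. The difference was 2.3-fold in favour of tails (limma adjusted p = 0.0125), it passed without any single array, and its adjusted p was 0.0582 in the single embryos. The other 14 had changes between -0.60 and 0.53, among them -0.59 for the kindlin-2 gene fermt2.L, -0.06 for the paxillin gene pxn.S and 0.04 for the integrin-linked kinase gene ilk.S.

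Of 5 other matrix proteins tested, 1 was higher in each tissue. The gene tgfbi.L encodes a secreted protein that links collagen to integrins. It read 10.10, 9.40, 10.30 and 9.64 in heads and 8.17, 8.25, 8.43 and 8.36 in tails, a 2.95-fold difference in favour of heads (limma adjusted p = 0.00348) that passed under every alternative that tested it. The microfibril gene mfap2.L was 2.2-fold higher in tails (limma adjusted p = 0.0257), and its call was lost when head replicate 2 (0.0755), 3 (0.0914) or 4 (0.0655) or tail replicate 2 (0.0819) or 3 (0.103) was left out, and among the single embryos (0.076). None passed in limma among 7 genes of other proteoglycans and of proteins that bind or cut hyaluronan. The same held for 10 genes of glycosaminoglycan synthesis and of sulfate addition or removal. It also held for the 3 genes of the protease list, adam10.S, ctsb.S and the protease inhibitor gene serpine2.S. In these lists 3, 3 and 0 genes had an unadjusted p under 0.05 (17.5% of all probe sets had). The brightest of these lists were the syndecan gene sdc4.L, the heparan sulfate enzyme gene ndst1.S and the cathepsin gene ctsb.S, with changes of -0.25, 0.14 and 0.22. All 7 genes of proteoglycans and of proteins that bind or cut hyaluronan had changes below 0, from -0.75 to -0.03. So had 4087 of all 9295 probe sets tested. This shared sign was picked out after the values were seen.

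**Figure D5:**
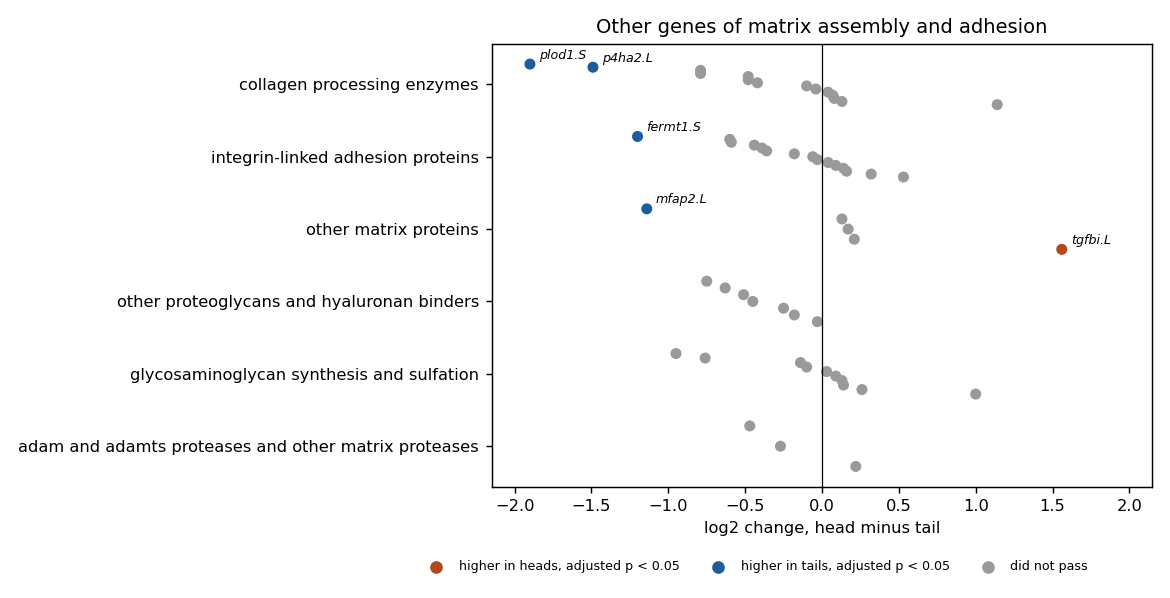
Log2 change (head minus tail, horizontal axis) of 54 tested genes in 6 lists of matrix assembly and adhesion, 1 point per gene. Coloured points passed an adjusted p of 0.05 in limma: plod1.S, p4ha2.L, fermt1.S and mfap2.L lie on the tail side and tgfbi.L on the head side.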

How the data were processed

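Per the submitters' processing notes probe sets were summarised with MAS5, whose version is not given in the sources used here. The authors deposited 1 linear intensity per probe set and array. These had been scaled: the mean, trimmed by 2% at each end, was 1000 on each array. No detection calls were used here, so background could not be examined, and precision rests on the 8 arrays. Median signals ran from 324.6 to 387.1.

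From these values, 120 control probe sets were left out, signals were raised to at least 1 and log2 was taken. Probe sets with a mean under the 40th percentile (7.86) were not tested, which left 9295. The tissues were compared in R 4.3.3 with the two-sided moderated test of limma 3.58.1 (eBayes with an intensity trend), and p-values were adjusted by Benjamini-Hochberg over all tested probe sets. Folds come from the difference of log2 means, and are given as bounds where the lower mean was under the 20th percentile of all values (log2 6.54). The replicate number, other normalizations, filters and left-out arrays were alternatives.

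Symbols came from the array annotation, of which 9227 of 9304 single symbols matched the RefSeq table of the Xenopus_laevis_v10.1 assembly, and 195 probe sets with several symbols were not named. The members and lists were chosen with earlier results of these data known. Named were members past the threshold, other probe sets of the same genes, the 3 brightest of each class, those without overlap that missed the threshold, and listed genes past the threshold or the brightest of their list. The other members named, among them mmp11.L, has2.S, hapln3.S, col9a2.L, mmp14.L, the thrombospondins and the alpha and beta5 integrins, and of the related genes serpinh1.S, fermt2.L, pxn.S and ilk.S, were chosen after their values were seen. Tests on simulated data preceded the comparison.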

Additional observations from a re-analysis of the deposited data

Results flagged for a closer look

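In 8 of 106 sets of 4 arrays of 1 tissue, 1 array stood apart from the others; chance flags about 1 in 20. In heads, replicate 1 was low for col6a1.L (7.82, others 9.88 to 10.18), col18a1.S (8.56, others 9.28 to 9.37) and mmp11.L (4.17, others 6.79 to 7.01). Head replicate 2 was high for the dim second probe set of tnc.L (6.97, others 4.78 to 4.85). The head pool was low for hapln3.S (8.84, others 9.43 to 9.50) and high for itgb5.L (9.09, others 8.43 to 8.54). In tails, replicate 1 was high for timp3.L in Xl.2467.2.S1_at (10.64, others 9.49 to 9.57) and replicate 2 was low for thbs4.S (9.13, others 9.55 to 9.64). None of these probe sets had passed the threshold.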

How the results depend on the processing

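The counts moved more than the changes. Over all probe sets, 186 were higher in heads and 243 in tails. These counts were 97 and 114 in the single embryos, 618 and 605 with array weights, and 287 and 396 without both replicates 1, a setting chosen after seeing the data. With the filter at the 60th percentile 100 were higher in heads. When 1 array was left out the counts ran from 96 to 219 and from 112 to 286. Of the matrix and integrin probe sets, 1 was higher in heads and 5 in tails in the main test. In the same settings these were 0 and 0 (single embryos), 4 and 6 (array weights) and 4 and 2 (without both replicates 1), and the filter at the 60th percentile left 3 in tails, since mmp21.L and tnc.L were then untested. Without 1 array the counts ran from 1 to 3 and from 0 to 4. Array weights added col9a1.L, itgb1.S and both timp3.L probe sets. With the replicate number as a block, 290 probe sets were higher in heads and 345 in tails; of the members 2 and 5 were, the addition being timp3.L (1.02, adjusted p = 0.0496). Deviations of same-numbered arrays correlated at 0.226, 0.0342, 0.0181 and 0.596, and head replicate 2 correlated best with tail replicate 1, so the numbers were not taken as pairs. Of 976 recomputed changes of 50 probe sets, 917 stayed on their side of the threshold, 48 no longer passed and 11 newly passed; 30 that were never called changed sign and no called change did. The cause of these shifts was not tested.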
